A study of Rattus norvegicus with 36 samples.

Results

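Lysosomal enzymes and membrane proteins were followed in the lungs of rats exposed to DQ-12, a reference dust of crystalline silica (quartz). The set held 34 genes out of 23721 genes tested, taken as the probes other than controls whose gene name in the array files was 1 of the 34 listed symbols, a rule that uses no measured value. The list itself was drawn up with earlier results of these data known. It comprised 7 cathepsins (Ctsb, Ctsc, Ctsd, Ctsh, Ctsl, Ctss, and Ctsz), the tripeptidyl peptidase Tpp1, 8 genes of lipid breakdown and export (Lipa, Pla2g15, Asah1, Smpd1, Psap, Ppt1, Npc1, and Npc2), 6 glycosidases (Gla, Glb1, Gusb, Hexa, Man2b1, and Neu1), 6 membrane proteins (Lamp1, Lamp2, Scarb2, Laptm5, Cln3, and Mcoln1), the transcription factor Tfeb, and 5 genes of the proton pump (Atp6v1a, Atp6v1b2, Atp6v0c, Atp6v0d1, and Atp6ap1). All 34 genes passed the filter on dim probes, and each was above background in all 6 rats of every group.

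Female Sprague Dawley rats, 13 weeks old at instillation, received either 10 mg of DQ-12 per rat in sterile saline or the saline alone (vehicle) through the trachea, under anesthesia with Domitor and ketamine in both arms. Total RNA of the accessory lobe of the lung was taken 1, 30, or 180 days later (D1, D30, and D180) from 6 rats per group and arm, and each rat had its own single-color (Cy3) Agilent array, 36 arrays in all. The precision of every value is limited by these 6 rats per group, and p values describe the spread between rats. In a piece of whole lobe, a change in the number of cells of a type and a change in RNA per cell cannot be told apart.

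Lysosomes are acidic organelles in which proteins, lipids, and sugar chains are taken apart by hydrolases that work best at low pH. The pH is kept low by the vacuolar proton pump, and membrane proteins such as Lamp1 and Lamp2 line the organelle. In the lung, macrophages are rich in lysosomes and take up inhaled particles into them, and alveolar type 2 cells store surfactant in organelles of lysosomal kind. Tfeb is known to raise the transcription of many lysosomal genes together, through short promoter elements with CACGTG at their center.

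That shared element is shown here in 3 members. The 250 bases before the start of each gene are given 5′ to 3′ on the strand of the gene, with CACGTG in capitals, from RefSeq promoter windows on GRCr8 (rat). Ctsd (chr1:206968822-206969071, minus strand) and Cln3 (chr1:190597930-190598179, minus strand) passed the test at D180, whereas Lamp1 (chr16:83075064-83075313, minus strand) had the largest number of matches among the members and did not pass it.

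Ctsd: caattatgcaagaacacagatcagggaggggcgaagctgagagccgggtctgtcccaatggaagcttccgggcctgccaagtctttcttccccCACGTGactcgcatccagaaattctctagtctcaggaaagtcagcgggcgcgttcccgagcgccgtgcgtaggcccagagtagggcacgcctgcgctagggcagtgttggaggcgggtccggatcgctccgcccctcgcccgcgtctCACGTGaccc

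Cln3: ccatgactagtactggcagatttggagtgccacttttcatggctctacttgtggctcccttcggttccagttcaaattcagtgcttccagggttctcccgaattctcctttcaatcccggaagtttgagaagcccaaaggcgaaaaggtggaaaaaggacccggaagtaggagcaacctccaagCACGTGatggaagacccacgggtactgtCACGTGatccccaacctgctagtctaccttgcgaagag

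Lamp1: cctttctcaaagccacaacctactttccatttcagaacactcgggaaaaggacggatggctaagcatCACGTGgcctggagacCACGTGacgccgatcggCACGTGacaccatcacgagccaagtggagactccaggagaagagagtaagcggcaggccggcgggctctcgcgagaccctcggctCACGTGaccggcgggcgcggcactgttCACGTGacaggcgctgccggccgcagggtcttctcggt

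Windows of 300 bases, from 250 before to 50 after the start, were at hand for 28 of the 34 members. CACGTG, which reads the same on both strands, lay in 6 of the 28 windows (21.4%), against 6.42% of 33469 windows of the same length. The longer form TCACGTG, searched on both strands and containing the shorter one, lay in 6 members (21.4%) and in 3.2% of all windows. The 6 genes were Ctsd, Glb1, Lamp1, Cln3, Mcoln1, and Atp6v0d1. Among the 16 members with a window that were higher at D180, 3 held CACGTG (18.8%), and among the 12 that were not called at D180, 3 held it as well (25%).

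Of the 5 members with the largest log2 FC at D180, 4 are shown by the 60-base probes that measured them, printed 5′ to 3′. On the build of the array files (rn4), the probe of Ctss lies at chr2:190466474-190466533 (plus strand) and that of Gusb at chr12:27756354-27756413 (plus strand). The probe of Npc2 spans chr6:108794590-108798310 (minus strand), a stretch longer than the probe itself. The files leave the probe of Ctsz without a position, and exon annotation of rn4 was not used here. The probe of Atp6v1b2, the member with the largest log2 FC, lies at chr16:22321029-22321088 (minus strand) and is not printed.

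Ctss: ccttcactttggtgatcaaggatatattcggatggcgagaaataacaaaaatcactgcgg

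Ctsz: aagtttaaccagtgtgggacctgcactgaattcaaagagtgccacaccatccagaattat

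Npc2: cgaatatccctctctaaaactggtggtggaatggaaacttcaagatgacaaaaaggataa

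Gusb: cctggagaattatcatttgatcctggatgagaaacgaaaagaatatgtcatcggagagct

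Values below are log2 signals after quantile normalization, a difference between groups is a log2 fold change (FC, DQ-12 minus vehicle), and a gene was called higher or lower at an adjusted p under 0.05 (limma over 36 arrays and 23721 genes, Benjamini–Hochberg adjustment within each comparison). At D1, 9 members were called, 4 higher and 5 lower, where 7.7% of all genes tested were called higher and 8.76% lower. At D30, 6 members were higher and 0 lower, against 2.78% and 1.26% of all genes. At D180, 20 of the 34 members were higher and 0 lower, against 7.93% and 9.12% of all genes. Without a batch term, the median log2 FC of the members went from −0.03 at D1 to 0.19 at D30 and 0.42 at D180. The median over all genes tested was −0.01, −0.02, and −0.03. The rise of the member median depended on this choice. With scan date as a fixed block it was 0.20 at D1, where 1 vehicle array shared the date of the DQ-12 arrays. With slide as a fixed block it was 0.28 at D180, where 1 slide held 1 rat of each group. At D30 it was 0.17 to 0.23 over the alternatives other than leaving out a rat.

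Most changes were below 2-fold. An FC of at least 2 with an adjusted p under 0.05 was reached at D1 by 1 member (Npc2), at D30 by 0 members, and at D180 by 3 (Ctsz, Npc2, and Atp6v1b2), all higher. The shares of all genes called higher by this rule were 2.04, 0.923, and 2.89%, and those called lower were 1.07, 0.135, and 0.78%. The groups did not overlap and the DQ-12 rats were all above the vehicle rats in 6 members at D1, 5 at D30, and 9 at D180, against 5.28, 1.83, and 3.88% of genes measured on every array of the time point. Every DQ-12 rat was below in 5 members at D1 and in 0 members at D30 and D180, against 6.04, 0.561, and 3.51%.

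**Figure D1:**
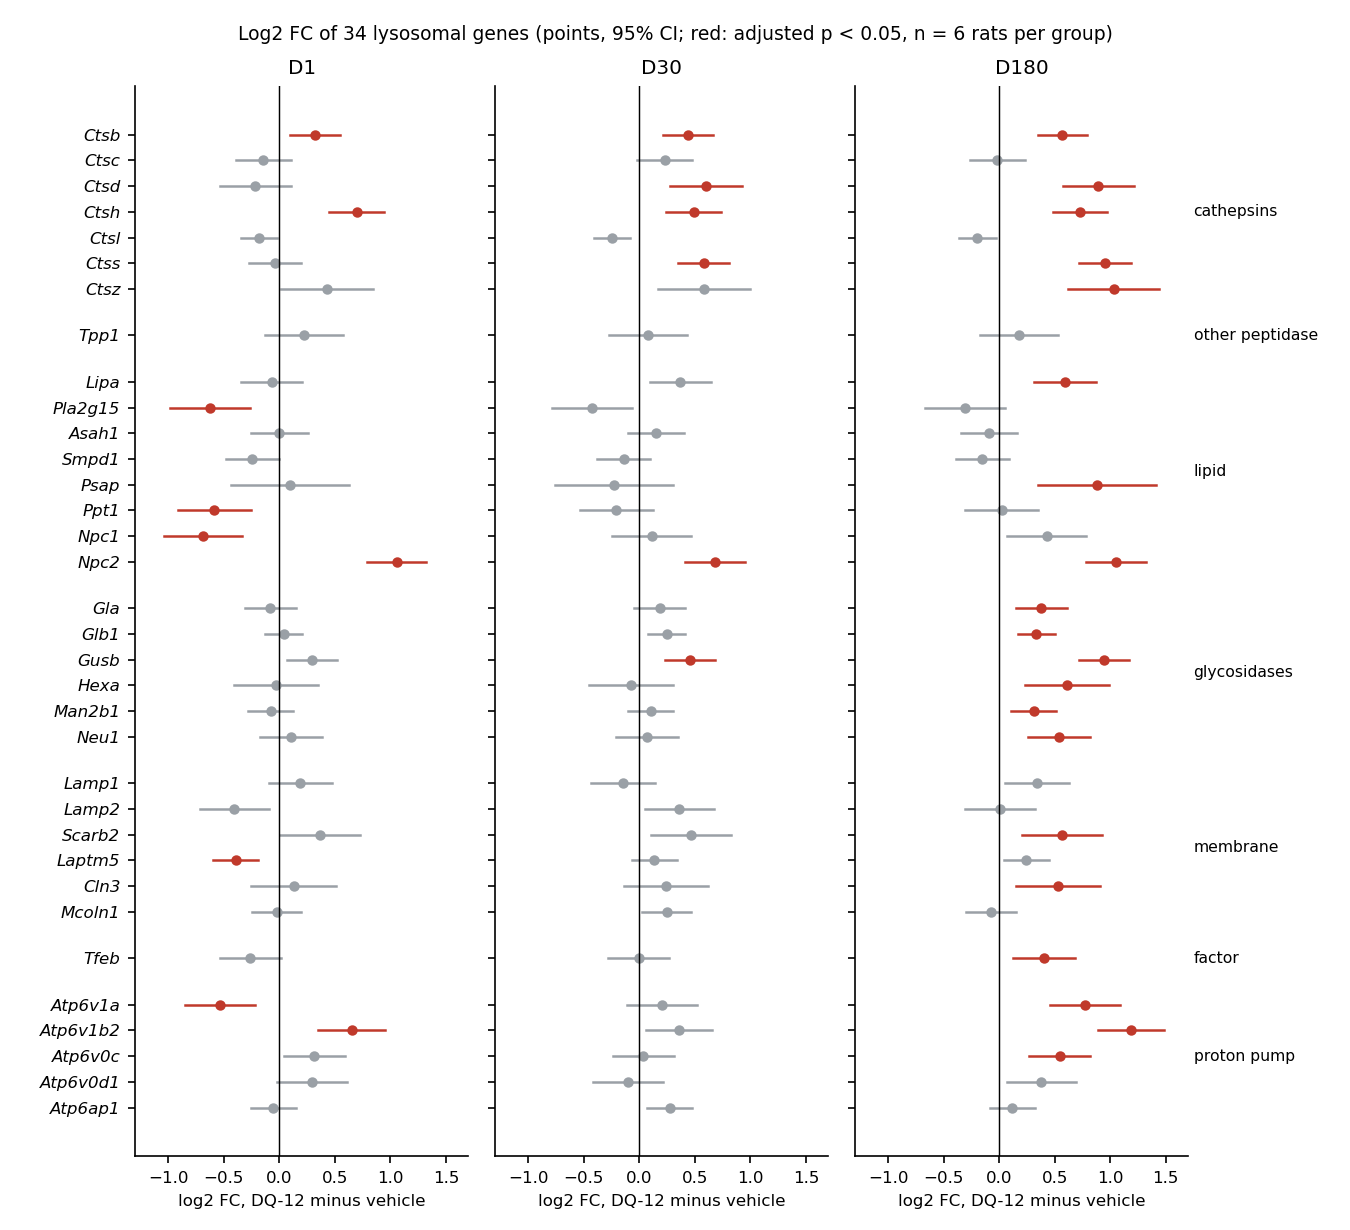
Log2 FC (horizontal axis, DQ-12 minus vehicle) of each of the 34 members at D1, D30, and D180, with 95% confidence intervals, ordered by role. Red points passed an adjusted p of 0.05 (limma, 6 rats per group), and the red points lie on both sides of 0 at D1 but only to the right of it at D30 (6 genes) and D180 (20 genes).

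The same values were summarized rat by rat. Of the 34 members, 16 had a positive log2 FC at D1, 25 at D30, and 28 at D180, against 11590, 11235, and 10930 of all 23721 genes. A median over the members does not show those that went the other way. Each member was set relative to its vehicle mean at the same time point, and the median over the 34 members was taken in each rat. At D1 this median ran from −0.12 to 0.13 in vehicle rats and from −0.11 to 0.04 in DQ-12 rats, so the groups overlapped. At D30 it ran from −0.14 to 0.08 in vehicle rats and from 0.08 to 0.44 in DQ-12 rats, and 1 vehicle rat was marginally above the lowest DQ-12 rat. At D180 the vehicle rats lay between −0.09 and 0.17 and the DQ-12 rats between 0.17 and 0.67, where the highest vehicle rat was again just above the lowest DQ-12 rat.

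**Figure D2:**
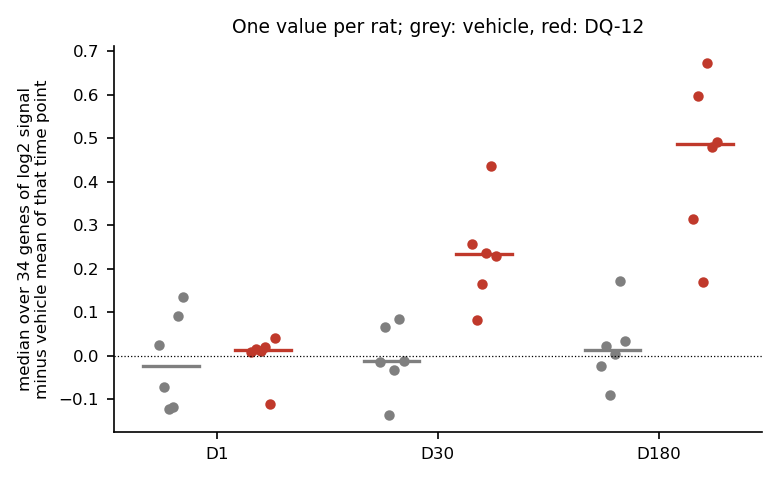
Median over the 34 members of the log2 signal minus the vehicle mean of the same time point (vertical axis, log2 units), with 1 point per rat, bars at the group medians, vehicle in grey, and DQ-12 in red. The DQ-12 medians were 0.01 at D1, 0.23 at D30, and 0.49 at D180.

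Arrays were not spread evenly over scan dates. At D1 all 6 DQ-12 arrays were scanned on 1 date, which they shared with 1 vehicle array, while the other 5 vehicle arrays were scanned on other dates. At D30 both dates held both groups (4 vehicle with 1 DQ-12, and 2 with 5), and at D180, 1 date held 3 and 3 and another 1 and 1. The arrays of each shared date are among those that gave the calls, so agreement in direction there is no separate evidence. Every called member kept its direction within each shared date (9 of 9 at D1, 6 of 6 on both dates at D30, and 20 of 20 on both dates at D180). With scan date as a block, however, the number of called members fell to 1 at D1 (Npc2), against 8 at D30 and 19 at D180. In that fit the log2 FC at D1 was 0.72 for Ctsh, −0.70 for Ppt1, −0.61 for Npc1, and 0.57 for Atp6v1b2, close to the values without the block, and −0.42 for Atp6v1a, −0.40 for Pla2g15, −0.23 for Laptm5, and 0.26 for Ctsb. The block left 1 vehicle array to compare with the 6 DQ-12 arrays of D1. Calls over all genes fell at D1 with this block as well. At D30 they went from 659 higher and 299 lower to 371 and 87. At D30, Psap, Hexa, Lamp1, and Atp6v0d1 had a negative log2 FC over all rats (−0.23, −0.08, −0.14, and −0.10) but positive differences within both dates (0.47 and 0.50, 0.45 and 0.31, 0.25 and 0.16, and 0.32 and 0.24). None of the 4 was called there. Slides held both groups in 1 case at D1 (1 vehicle and 4 DQ-12 rats), 3 at D30, and 1 at D180 (1 rat of each group). Within each of them all called members also kept their direction, again in arrays that gave the calls. With slide as a fixed block, the threshold was passed by 3 members at D1, 10 at D30, and 4 at D180 (Ctsh, Ctsz, Gusb, and Atp6v1b2), and with slide as a random block 7, 8, and 19. Calls over all genes fell with slide as a fixed block at every time point, at D30 to 422 higher and 128 lower. With this block, the log2 FC at D180 is the difference of the 1 pair of rats on the shared slide. It was lower than that over all rats by more than 1.5 times in 7 called members, at 0.55 in Ctsd, 0.30 in Psap, 0.15 in Gla, 0.15 in Man2b1, 0.33 in Neu1, 0.23 in Tfeb, and 0.29 in Atp6v1a. A difference in FC from D1 to D30 or D180 was called in 0 members with either slide or scan date as a fixed block. With each time point fitted alone, the D180 calls of Lipa, Gla, Glb1, Scarb2, Cln3, and Tfeb were lost.

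Cathepsins, the main lysosomal proteases, were called in growing number. Of the 7 genes, 2 were higher at D1, 4 at D30, and 5 at D180 (7.7, 2.78, and 7.93% of all genes), and 0 were lower (8.76, 1.26, and 9.12%). Their median log2 FC was −0.04, 0.49, and 0.73 at the 3 time points, against −0.01, −0.02, and −0.03 for all genes.

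Cathepsin S, a cysteine protease known for cutting the invariant chain of class II molecules, was not called at D1 and was higher at both later times. Its log2 signal at D1 was 11.88 to 12.42 in vehicle rats (median 12.10) and 11.69 to 12.23 in DQ-12 rats (median 12.12). At D30 the vehicle rats were at 11.89 to 12.22 (median 11.95) and the DQ-12 rats at 12.30 to 12.85 (median 12.55). The Ctss values of the groups overlapped at D1 and were apart at D30 and D180, where the vehicle rats lay at 11.75 to 12.31 (median 11.98) and the DQ-12 rats at 12.72 to 13.14 (median 12.98). The log2 FC of Ctss was −0.04 ± 0.11 (SE) at D1, 0.58 ± 0.11 at D30 (limma adjusted p = 0.0015), and 0.95 ± 0.11 at D180 (limma adjusted p = 1.8e-07). Its FC at D30 exceeded that at D1 by 0.62 on the log2 scale, and that at D180 exceeded that at D1 by 0.99 (limma adjusted p = 0.0304 and 0.000245 for these interactions).

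Cathepsin D, the main aspartic protease of lysosomes, was likewise called at D30 and D180. Ctsd signals at D30 were 15.23 to 16.18 in vehicle rats (median 15.93) and 16.18 to 16.92 in DQ-12 rats (median 16.41), with 5 of the 6 DQ-12 rats above every vehicle rat. At D180 they were 15.33 to 15.90 (median 15.76) and 16.15 to 16.84 (median 16.68), without overlap. The log2 FC of Ctsd was −0.22 at D1 (95% confidence interval −0.54 to 0.10), 0.60 ± 0.16 at D30 (limma adjusted p = 0.023), and 0.89 ± 0.16 at D180 (limma adjusted p = 8.29e-05). Its FC differed from that at D1 both at D30 (by 0.82, limma adjusted p = 0.0424) and at D180 (by 1.11, limma adjusted p = 0.00255). The D30 call of Ctsd was lost without vehicle rat 4 or vehicle rat 6 of that time point, with 75th percentile scaling, with the deposited log2 values, and with D30 fitted alone, with adjusted p between 0.000531 and 0.153 over all alternatives.

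Cathepsin H, an aminopeptidase that type 2 cells use to process surfactant proteins, was already higher on the first day. Ctsh signals at D1 were 13.56 to 13.93 in vehicle rats (median 13.68) and 14.35 to 14.50 in DQ-12 rats (median 14.45), and at D30 they were 13.74 to 14.09 (median 13.85) and 14.11 to 14.55 (median 14.36). At D180 the vehicle rats reached from 13.77 to 14.42 (median 13.91) and the DQ-12 rats from 14.16 to 15.08 (median 14.76). The groups were apart at D1 and D30 and overlapped in 1 DQ-12 rat at D180. Log2 FC values of Ctsh were 0.69 ± 0.12, 0.49 ± 0.12, and 0.73 ± 0.12 at D1, D30, and D180 (limma adjusted p = 9.75e-05, 0.0135, and 3.06e-05), and its FC at D180 exceeded that at D1 by 0.04 (95% confidence interval −0.31 to 0.38).

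Cathepsin B, a cysteine protease, was called at all 3 time points with smaller changes. Ctsb signals were 15.82 to 16.02 in vehicle rats (median 15.99) and 16.18 to 16.36 in DQ-12 rats (median 16.28) at D1, and 15.95 to 16.53 (median 16.14) and 16.39 to 16.99 (median 16.55) at D30. The groups were apart at D1 and D180 and overlapped at D30, where 3 of 6 DQ-12 rats were above all vehicle rats. At D180 the vehicle rats lay at 15.90 to 16.30 (median 16.12) and the DQ-12 rats at 16.30 to 17.00 (median 16.67). Ctsb had log2 FC of 0.32, 0.44, and 0.57, each ± 0.11 (limma adjusted p = 0.0424, 0.0161, and 0.000273). The D1 call was lost when any single rat of that time point other than vehicle rat 3 or DQ-12 rat 5 was left out, and also with slide or scan date as a block or with the median over probes. The D30 call was lost without vehicle rat 1, vehicle rat 6, or DQ-12 rat 1, and also with 75th percentile scaling, the deposited log2 values, scan date as a fixed block, or D30 fitted alone (limma adjusted p = 0.0565, 0.0562, 0.136, and 0.137).

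Cathepsin Z, a carboxypeptidase, had the largest FC of the cathepsins at D180. Ctsz signals at D180 were 9.76 to 11.37 in vehicle rats (median 10.38) and 10.91 to 11.76 in DQ-12 rats (median 11.61). The vehicle rats were widely spread, and 4 of the 6 DQ-12 rats lay above all of them. This gave Ctsz a log2 FC of 1.03 ± 0.20 at D180 (limma adjusted p = 0.000336), after 0.43 at D1 and 0.58 at D30 with adjusted p of 0.156 and 0.105.

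Cathepsin L and cathepsin C were called at no time point. Ctsl, a cysteine protease as Ctsb and Ctss are, had a log2 FC of −0.18 at D1, −0.24 at D30, and −0.20 at D180, with the same sign throughout (limma adjusted p = 0.116, 0.0837, and 0.0938). At D30 its vehicle rats lay at 13.72 to 14.03 and its DQ-12 rats at 13.48 to 13.80, so that 5 of 6 DQ-12 rats were below every vehicle rat. Ctsc, which activates the serine proteases of granules, had log2 FC of −0.14, 0.23, and −0.02, with an interval of −0.26 to 0.23 at D180. Its 3 probes were called at none of the time points.

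**Figure D3:**
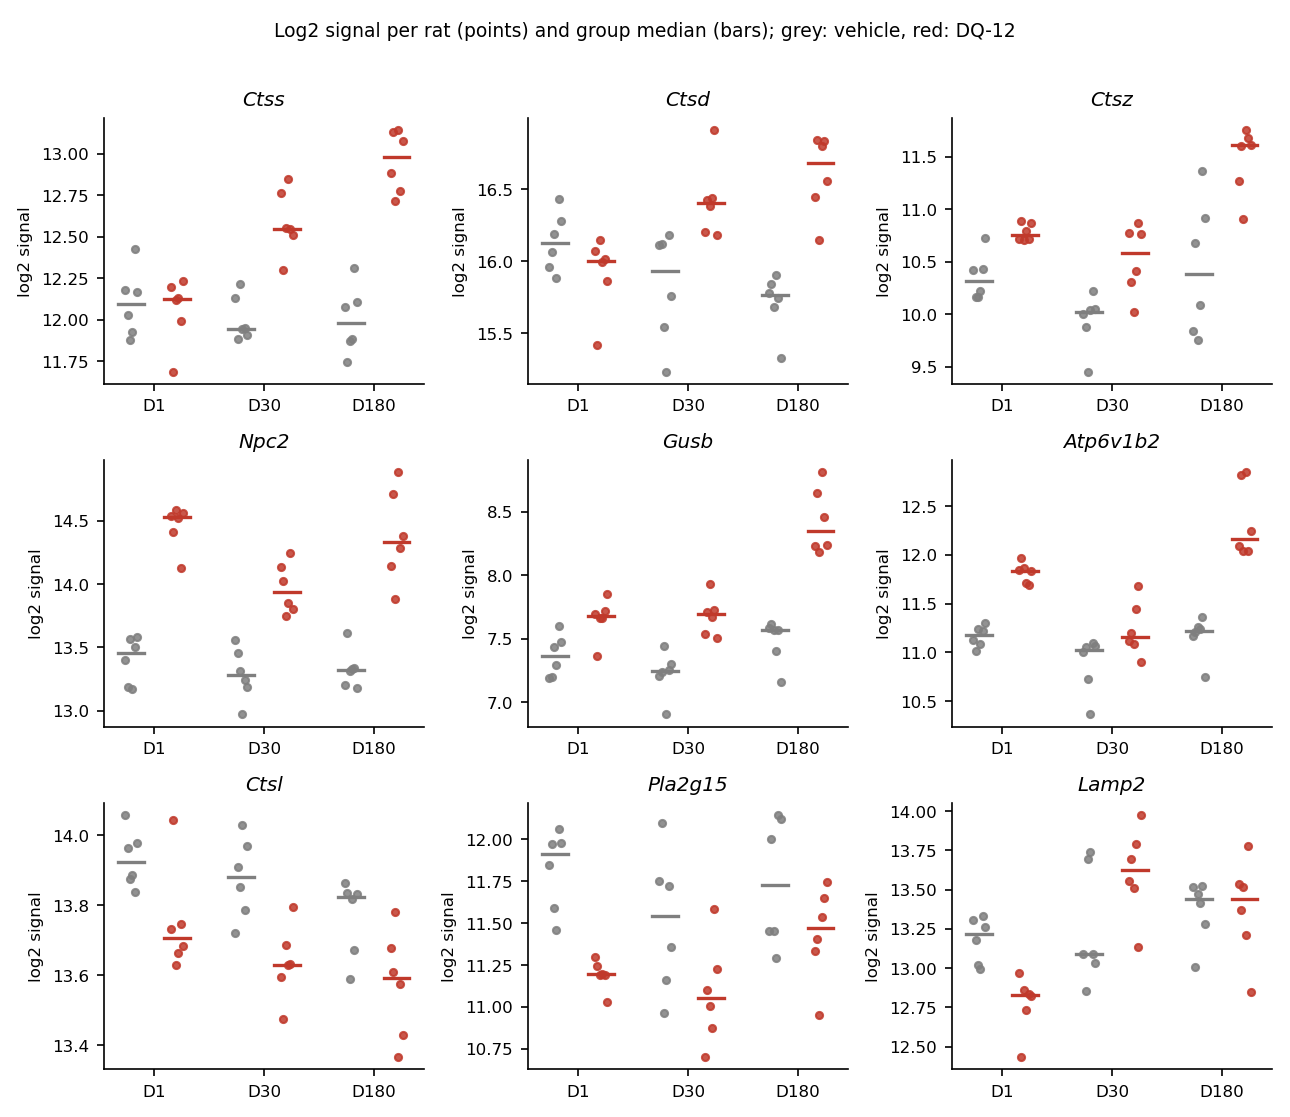
Log2 signal (vertical axis) of 9 members in each rat at D1, D30, and D180, with bars at the group medians, vehicle in grey, and DQ-12 in red. Ctss, Ctsd, and Gusb separated the groups at D180 and Npc2 at all 3 time points, whereas Ctsl, Pla2g15, and Lamp2 overlapped between the groups at D30 and D180 and were not called there.

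The genes of lipid breakdown and export were called in both directions at D1, with 1 of 8 higher and 3 lower (7.7 and 8.76% of all genes). At D30, 1 was higher and 0 lower (2.78 and 1.26%), and at D180, 3 were higher and 0 lower (7.93 and 9.12%). Their median log2 FC was −0.16, −0.01, and 0.22.

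Npc2, the soluble protein that hands cholesterol to Npc1 for export, was the only member called at 2-fold or more on the first day and was called at every time point. Npc2 signals at D1 were 13.17 to 13.58 in vehicle rats (median 13.45) and 14.13 to 14.59 in DQ-12 rats (median 14.53). At D30 they were 12.97 to 13.56 (median 13.28) and 13.75 to 14.24 (median 13.94). At D180 the vehicle rats had 13.18 to 13.62 (median 13.32) and the DQ-12 rats 13.88 to 14.88 (median 14.33). The groups were apart at all 3 time points. Npc2 had a log2 FC of 1.05 ± 0.13 at D1, 0.68 ± 0.13 at D30, and 1.05 ± 0.13 at D180 (limma adjusted p = 6.86e-07, 0.0015, and 4.81e-07).

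Npc1, its membrane-bound partner, moved the other way at D1. The vehicle rats had Npc1 signals of 12.87 to 13.37 (median 13.18) and the DQ-12 rats 12.10 to 12.95 (median 12.33), with 5 of 6 DQ-12 rats below every vehicle rat. Npc1 had a log2 FC of −0.69 ± 0.17 at D1 (limma adjusted p = 0.00575), 0.11 at D30, and 0.43 at D180 (95% confidence interval 0.07 to 0.78, limma adjusted p = 0.0937). The rise in FC from D1 to D180 was 1.11 and passed the test (limma adjusted p = 0.0065).

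Pla2g15, the lysosomal phospholipase that degrades phospholipids, was also lower at D1. Its signals were 11.46 to 12.06 in vehicle rats (median 11.91) and 11.03 to 11.30 in DQ-12 rats (median 11.19), without overlap, and the log2 FC was −0.63 ± 0.18 (limma adjusted p = 0.0126). At D30 and D180 the log2 FC of Pla2g15 was −0.43 (interval −0.79 to −0.07) and −0.31 (interval −0.67 to 0.05), with adjusted p of 0.2 and 0.266. Within the D30 scan dates the difference of Pla2g15 was −0.15 and −0.08, and on 1 of the 3 shared slides it was 0.03. Ppt1, which removes palmitate from proteins, was the remaining lipid gene lowered at D1, with signals of 13.95 to 14.27 in vehicle rats (median 14.19) against 12.55 to 13.94 in DQ-12 rats (median 13.73). Its log2 FC was −0.59 ± 0.16 (limma adjusted p = 0.0114). DQ-12 rat 2 was far below the other 5 for Ppt1, and without it the log2 FC was −0.38 (limma adjusted p = 0.0384). With 75th percentile scaling the log2 FC of Ppt1 was −0.50 (limma adjusted p = 0.0606), and its call was also lost with the deposited log2 values and with D1 fitted alone. The remaining probe of Ppt1 gave −0.90 at D1, and at D30 the probes differed in sign (−0.21 and 0.19) without a call. Within the shared scan date of D1, which held 1 vehicle rat, the log2 differences of Npc1, Pla2g15, and Ppt1 were −0.61, −0.40, and −0.70.

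Lipa and Psap were called at D180. Lipa, the acid lipase that splits cholesteryl esters and triglycerides, had D180 signals of 10.93 to 11.92 in vehicle rats (mean 11.50) and 11.82 to 12.54 in DQ-12 rats (mean 12.09), and 4 of 6 DQ-12 rats were above all vehicle rats. The vehicle mean was drawn down by vehicle rats 1 and 3 (11.07 and 10.93), which shared a slide, with the others at 11.40 to 11.92. On their scan date, with 3 rats of each group, the difference of Lipa was 0.74, and on the date with 1 of each it was 0.24. For Lipa, the means and not the medians are given. Its log2 FC was 0.59 ± 0.14 (limma adjusted p = 0.00176) and differed from that at D1 by 0.66 (limma adjusted p = 0.0393). Psap, the precursor of the saposins that assist sphingolipid breakdown, had D180 signals of 11.71 to 12.37 (median 12.05) and 12.50 to 13.55 (median 12.83), without overlap. Its log2 FC was 0.88 ± 0.26 (limma adjusted p = 0.0163), a call that was lost without DQ-12 rat 6. With slide as a fixed block, which compares 1 rat of each group at D180, the log2 FC of Psap was 0.30. At D30 the log2 FC of Psap was −0.23 (interval −0.76 to 0.30), but within both scan dates the difference was positive (0.47 and 0.50), as it was on the 3 shared slides (0.38, 0.58, and 0.38). The sphingolipid hydrolases Smpd1 (acid sphingomyelinase) and Asah1 (acid ceramidase) were called at no time point, with log2 FC of −0.15 and −0.09 at D180.

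Glycosidases, which trim sugar chains from glycoproteins and glycolipids, were called together at D180. Of the 6, 0 passed the test at D1, 1 was higher at D30, and all 6 were higher at D180. The shares of all genes called higher were 7.7, 2.78, and 7.93%. The median log2 FC of the glycosidases was 0.00, 0.14, and 0.46. Gusb, the beta-glucuronidase, led the group. Its signals were 6.90 to 7.45 in vehicle rats (median 7.25) and 7.51 to 7.93 in DQ-12 rats (median 7.69) at D30, and 7.16 to 7.62 (median 7.57) and 8.19 to 8.81 (median 8.35) at D180, without overlap at either time point. Gusb thus had a log2 FC of 0.30 at D1, 0.45 ± 0.11 at D30 (limma adjusted p = 0.0133, lost with D30 fitted alone), and 0.95 ± 0.11 at D180 (limma adjusted p = 1.54e-07), and the FC at D180 exceeded that at D1 by 0.65 (limma adjusted p = 0.0131). A dim remaining probe of Gusb gave 0.03 at D180, and the median of both probes gave 0.49 (limma adjusted p = 0.0528).

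Hexa, a subunit of beta-hexosaminidase, had D180 signals of 9.42 to 9.89 in vehicle rats (median 9.68) and 9.84 to 10.65 in DQ-12 rats (median 10.22), with 5 of 6 DQ-12 rats above every vehicle rat. Its log2 FC was 0.61 ± 0.19 (limma adjusted p = 0.0182), and the call was lost without DQ-12 rat 4. The other 4, the sialidase Neu1, the alpha-galactosidase Gla, the beta-galactosidase Glb1, and the alpha-mannosidase Man2b1, had log2 FC of 0.31 to 0.54 at D180, with adjusted p from 0.00358 to 0.0261. The Gla call was lost without vehicle rat 2, vehicle rat 6, or DQ-12 rat 2 of D180, and the Man2b1 call without vehicle rat 5, vehicle rat 6, or DQ-12 rat 4. Within the D180 scan date of 3 vehicle and 3 DQ-12 arrays, the log2 differences of Gusb, Hexa, Neu1, Gla, Glb1, and Man2b1 were 0.84, 0.67, 0.56, 0.24, 0.25, and 0.24.

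Membrane proteins gave few calls. Of the 6, 1 was lower at D1 (8.76% of all genes), 0 were called at D30, and 2 were higher at D180 (7.93%). Their median log2 FC was 0.05, 0.24, and 0.29. Laptm5, a lysosomal membrane protein of blood-derived cells, was lower at D1, with signals of 15.11 to 15.51 in vehicle rats (median 15.25) against 14.68 to 15.05 in DQ-12 rats (median 14.88), without overlap. Laptm5 had a log2 FC of −0.39 ± 0.10 at D1 (limma adjusted p = 0.00573), 0.13 at D30, and 0.24 at D180. The differences between the time points were 0.53 from D1 to D30 (limma adjusted p = 0.0372) and 0.64 from D1 to D180 (limma adjusted p = 0.0065). When arrays were scaled to the 75th percentile, the log2 FC of Laptm5 at D1 was −0.24 and its call was lost (limma adjusted p = 0.0694).

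Scarb2, the membrane receptor that brings glucocerebrosidase to lysosomes, had D180 signals of 7.84 to 8.93 in vehicle rats (median 8.19) and 8.46 to 9.37 in DQ-12 rats (median 8.83). Only 2 of the 6 DQ-12 rats were above all vehicle rats, and the log2 FC was 0.57 ± 0.18 (limma adjusted p = 0.0217). The call of Scarb2 was lost without vehicle rat 1, 2, or 3 or DQ-12 rat 2 or 5 of that time point. Cln3, a membrane protein whose loss causes a storage disease of neurons, was just inside the threshold at D180 (log2 FC 0.53 ± 0.19, limma adjusted p = 0.048). Its signals of 6.35 to 7.45 (median 6.85) and 6.92 to 7.93 (median 7.39) overlapped, and the call was lost under 31 of 49 alternatives.

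The main structural proteins of the lysosomal membrane were not called. Lamp1 had a log2 FC of 0.34 at D180 (interval 0.06 to 0.63, limma adjusted p = 0.0967), with vehicle rats at 12.45 to 12.77 and DQ-12 rats at 12.58 to 13.32. Lamp2 had −0.41 at D1, 0.36 at D30, and 0.01 at D180. Within the D30 scan dates its difference was 0.12 and −0.01. Its probes differed at D180, since the remaining probe gave 0.32 with an adjusted p of 0.0228. The calcium channel Mcoln1 had a log2 FC of −0.07 at D180 (interval −0.29 to 0.15).

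Tfeb, the transcription factor of the set, was higher at D180. Its signals at that time were 7.73 to 8.22 in vehicle rats (median 7.92) and 7.74 to 8.98 in DQ-12 rats (median 8.30), with 3 of 6 DQ-12 rats above every vehicle rat. Tfeb had a log2 FC of −0.26 at D1, −0.01 at D30, and 0.41 ± 0.14 at D180 (limma adjusted p = 0.0363), and the FC at D180 exceeded that at D1 by 0.67 (limma adjusted p = 0.0394). The D180 call of Tfeb was lost without vehicle rat 1, 2, or 6 or DQ-12 rat 2, 4, or 5. It was also lost with slide as a random block (limma adjusted p = 0.0559), with array weights (0.0895), and with D180 fitted alone (0.214). With slide as a fixed block, which compares 1 rat of each group at D180, the log2 FC of Tfeb was 0.23. Within the shared scan date of D1 the difference of Tfeb was 0.22, opposite in sign to that over all rats.

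Members of the proton pump, which acidifies the lysosome, were called upward in 3 of 5 cases at D180 (7.93% of all genes). At D1, 1 was higher and 1 lower (7.7 and 8.76% of all genes), and a count of 1 gene is not read as a result about the pump. At D30, 0 were called. Their median log2 FC was 0.30, 0.20, and 0.54 at the 3 time points. Atp6v1b2, a subunit of the catalytic head, showed the largest change of all 34 members. Its signals at D1 were 11.01 to 11.30 in vehicle rats (median 11.18) and 11.69 to 11.96 in DQ-12 rats (median 11.84). At D180 the vehicle rats lay between 10.74 and 11.37 (median 11.22) and the DQ-12 rats between 12.04 and 12.85 (median 12.16), and the groups overlapped at neither of these times. At D30 the groups overlapped, at 10.36 to 11.09 (median 11.03) and 10.90 to 11.68 (median 11.16). Atp6v1b2 had a log2 FC of 0.65 ± 0.15 at D1 (limma adjusted p = 0.00198), 0.36 at D30 (limma adjusted p = 0.196), and 1.18 ± 0.15 at D180 (limma adjusted p = 3.5e-07). The difference of 0.83 between D30 and D180 had an adjusted p of 0.0672. Within the D30 scan dates the difference of Atp6v1b2 between groups was 0.63 and 0.61, and on the 3 shared slides 0.65, 0.52, and 0.61.

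Atp6v1a, the catalytic subunit that works beside Atp6v1b2, was called lower at D1 and higher at D180 by its brighter probe. At D1 its signals were 11.91 to 12.15 in vehicle rats (median 12.04) and 10.60 to 11.80 in DQ-12 rats (median 11.67), all below the vehicle rats. At D180 they were 10.97 to 11.84 (median 11.57) and 11.98 to 12.41 (median 12.23), all above them. The log2 FC of Atp6v1a was −0.54 ± 0.15 at D1 (limma adjusted p = 0.0144), 0.20 at D30, and 0.77 ± 0.15 at D180 (limma adjusted p = 0.000368), and the rise of 1.31 between D1 and D180 was the largest difference between time points among the members (limma adjusted p = 0.000338). Without DQ-12 rat 2, whose signal was far below the others, the log2 FC was −0.36 (limma adjusted p = 0.0565), and the remaining probe of Atp6v1a gave 0.19 at D1 but 0.92 at D180. The D1 call of Atp6v1a was also lost with slide as a random block and with D1 fitted alone (limma adjusted p = 0.0743 and 0.0658). It was lost as well with scan date as a random block (limma adjusted p = 0.11). The median over its probes gave −0.17 at D1 (limma adjusted p = 0.342). With slide as a fixed block, which compares 1 rat of each group at D180, the log2 FC of Atp6v1a at that time was 0.29.

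Atp6v0c, the ring protein through which protons pass, had D180 signals of 12.01 to 12.46 in vehicle rats (median 12.16) and 12.22 to 13.15 in DQ-12 rats (median 12.78), with 5 of 6 DQ-12 rats above every vehicle rat. The FC of Atp6v0c was 0.54 ± 0.13 on the log2 scale (limma adjusted p = 0.00356), and both of its probes were called (0.52 and 0.54). At D30 these probes gave −0.06 and 0.04. Atp6v0d1 and the accessory subunit Atp6ap1 were called at no time point, with log2 FC of 0.38 (interval 0.07 to 0.69) and 0.12 (interval −0.08 to 0.32) at D180.

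Differences between time points were tested in the same model. The FC at D30 exceeded that at D1 in 3 members (Ctsd, Ctss, and Laptm5), and in the opposite direction in 0, while 0.949% and 1.26% of all genes were called these ways. That count fell to 0 without vehicle rat 5 or DQ-12 rat 2 of D1 or without vehicle rat 6 or DQ-12 rat 4 of D30, and to 1 without vehicle rat 1 or 6 of D1 or DQ-12 rat 1 of D30. From D30 to D180, 0 members were called by limma, against 0.164% of all genes higher and 0.0801% lower. At an unadjusted limma p under 0.05 there were 12 members, and 2813 of all 23721 genes. The FC was larger at D180 in 28 of 34 members, and in 11207 of all genes. The 0 members called became 1 without vehicle rat 3 or 4 of D30 or DQ-12 rat 3 of D180, and 2 without DQ-12 rat 5 of D30. From D1 to D180, 8 members gained (Atp6v1a, Ctsd, Ctss, Gusb, Laptm5, Lipa, Npc1, and Tfeb), against 2.64% of all genes, and 0 lost (2.01%). With slide or scan date as a fixed block, 0 members passed in either of the comparisons with D1, where all DQ-12 arrays shared 1 scan date. These differences share vehicle rats with the comparisons at each time point and are no separate evidence.

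At D1 the split between higher and lower members depended on the scaling and on how slide and scan date were treated. Quantile normalization gave 4 higher and 5 lower, whereas 75th percentile scaling gave 5 higher and 3 lower, and the log2 values as deposited also gave 5 and 3. With scan date as a random block it was 3 higher and 0 lower, and with slide as a random block 3 and 4. Over all genes the counts were 1826 higher and 2079 lower with quantile normalization, and 1578 and 2307 with 75th percentile scaling. They were 889 and 819 with scan date as a random block, and 1213 and 1369 with slide as a random block. No called member changed direction under any alternative.

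Other genes of the lysosome were counted in 6 lists. Of all genes tested, 7.7% were called higher and 8.76% lower at D1. The shares were 2.78% and 1.26% at D30, and 7.93% and 9.12% at D180. A count of 1 gene in a short list is not read as a result about that list. The calls of list genes were not followed under the alternatives. At D1 all 6 DQ-12 arrays shared 1 scan date with 1 vehicle array. Of 25 other hydrolases tested, 2 were higher and 4 lower at D1, 6 and 0 at D30, and 13 and 1 at D180, and their median log2 FC at D180 was 0.50. Ctsk, the collagen-degrading cathepsin of osteoclasts, had by far the largest change, with D180 signals of 8.55 to 9.27 in vehicle rats (median 8.98) and 11.20 to 12.72 in DQ-12 rats (median 11.92), well apart. Its log2 FC was 1.04 at D30 (limma adjusted p = 0.00815) and 2.88 at D180 (limma adjusted p = 1.48e-10), larger than that of any of the 34 members. Acp5 (tartrate-resistant acid phosphatase) and Gm2a (the GM2 ganglioside activator) had log2 FC of 0.88 and 0.95 at D180 and were called.

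The remaining proton pump subunits were uneven. Of 14 tested, 2 were higher and 2 lower at D1, 1 was higher at D30, and 7 were higher at D180, with a median log2 FC of 0.37. Atp6v0d2, a form of the d subunit known from osteoclasts and macrophages, had signals of 5.21 to 5.83 in vehicle rats and 7.59 to 8.31 in DQ-12 rats at D180 and a log2 FC of 1.55 at D30 and 2.42 at D180 (limma adjusted p = 1.6e-05 and 6.52e-10). Its ubiquitous relative Atp6v0d1, a member, had 0.38 at D180 without a call. Tcirg1, the pump subunit a3, had a log2 FC of 1.24 at D180 (limma adjusted p = 8.59e-08), and Atp6v1h was lower at D1 (log2 FC −0.60, limma adjusted p = 0.0082).

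Among 9 other membrane proteins and transporters, 2 were higher and 1 lower at D1, 3 higher at D30, and 6 higher at D180. Cd68, a lysosomal glycoprotein of macrophages, had log2 FC of 1.16 at D30 and 1.55 at D180, and the metal transporter Slc11a1 had 1.59 at D180 (limma adjusted p = 3.22e-05). Of 7 genes that sort enzymes to the lysosome, 1 was higher and 1 lower at D1, 1 lower at D30, and 2 higher at D180. Both mannose 6-phosphate receptors were higher at D180 (M6pr by 0.33 and Igf2r by 0.34 on the log2 scale), while the receptor Sort1 was lower at D1 and D30 (−0.53 and −0.72).

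Relatives and regulators of Tfeb were called in 3 of 8 cases at D180, all higher, after 0 at D1 and 1 at D30. Tfec, a relative found in macrophages, had a log2 FC of 0.73 at D30 and 0.95 at D180 (limma adjusted p = 0.00719 and 8.35e-05), and the small GTPases Rragc and Rragd had 0.37 and 0.45 at D180. Of 5 cathepsin inhibitors, 1 was higher at D1 and 2 at D30 and D180. They were Cst7 (cystatin F), with log2 FC of 0.88, 0.48, and 1.18 at the 3 time points, and Cstb (cystatin B), with 0.67 at D30 and 0.74 at D180.

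**Figure D4:**
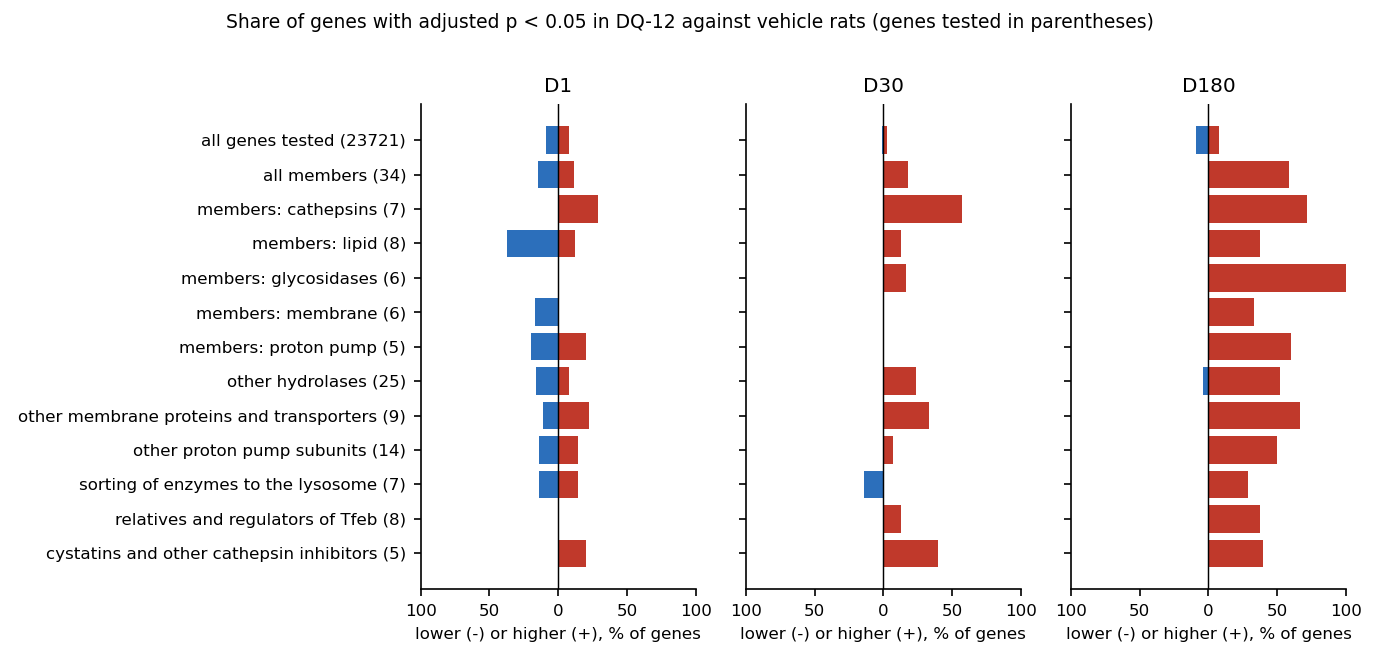
Share of genes (horizontal axis, % of genes tested, number in parentheses) called higher (right, red) or lower (left, blue) in DQ-12 against vehicle rats at D1, D30, and D180, for all genes tested, the members by role, and other lysosomal lists. At D180 the members show 20 of 34 genes to the right and 0 to the left, against 7.93 and 9.12% of all genes.

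Markers of several cell types were also counted, and their part in these changes was not tested. Cd68 stood both among the macrophage markers and among the other membrane proteins above. Of all genes, 7.7% were higher and 8.76% lower at D1, 2.78% and 1.26% at D30, and 7.93% and 9.12% at D180. Of 10 macrophage markers, 2 were higher at D1, 4 at D30, and 5 at D180, where 1 (Cd163) was lower. Their summed signal on the linear scale (divided by 1000, as are all sums here) was 313 to 320 in vehicle rats and 332 to 390 in DQ-12 rats at D180, without overlap, whereas at D1 (315 to 319 against 281 to 321) and D30 (266 to 314 against 285 to 325) the ranges overlapped. Of 7 neutrophil markers, 1 was higher at D1, 2 at D30, and 4 at D180, with 1 lower (Fpr1) at D30 and D180, and their sum at D180 was 8.41 to 16.1 in vehicle rats and 46.9 to 67.4 in DQ-12 rats. The D30 sums were 7.66 to 17.2 and 22.0 to 61.8, also apart, and at D1 8.68 to 19.3 and 10.9 to 25.9. Among the neutrophil markers, Mpo was not well above background in any vehicle rat at D1, and all other neutrophil and all macrophage markers were in at least 1 rat of every group.

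Markers of alveolar type 2 cells were used to check the label of lung tissue and were measured in every rat. Against the shares of all genes given above, a count of 1 gene is not read as a result about a cell type. Of these 7 genes, 1 was higher and 1 lower at D1, 2 higher at D30, and 3 higher at D180. Their sum at D30 was 801 to 876 in vehicle rats and 924 to 977 in DQ-12 rats, apart, and the sums overlapped at D1 (762 to 847 and 807 to 907) and D180 (724 to 806 and 776 to 943). Of 7 markers of T and B cells, 1 was higher at D180 and 0 earlier, with overlapping sums at every time point (4.87 to 6.41 and 5.34 to 8.89 at D180). Of 7 markers of heart and skeletal muscle, 1 was higher at D1 and 1 lower at D180, with overlapping sums (25.1 to 37.6 and 17.4 to 29.8 at D180), and Myh1 and Myh2 were not well above background in any vehicle rat at D1 or D30.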

How the data were processed

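Single-color Agilent arrays were processed from the deposited spot intensity values that the authors extracted with Feature Extraction 12.0.1.1, a version given in the submitters' processing notes (probe positions on rn4). The deposited log2 values matched log2 intensities (background-corrected) scaled to the 75th percentile of each array and centered per probe (median absolute difference 0.00177), and served as an alternative. Background-corrected intensities were log2 transformed, outlier spots (232 to 596 per array) were left out, and spots were averaged per probe. Probes above the 95th percentile of 308 negative controls on at least 6 of 36 arrays were kept and quantile normalized, and each gene was represented by its brightest probe on average (23721 genes). The study corrected for batch but named no variable, so no batch term was used. Group means of all 36 arrays were fitted with limma 3.58.1 in R 4.3.3, with Benjamini–Hochberg adjustment per comparison, after a check on simulated data. Figures were drawn with matplotlib 3.10.9 in Python 3.11.15.

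Members and lists were chosen with earlier results of these data known. Values were given for called members with the largest FC (up to 10 per time point), for every called member of roles with at most 3 calls, for called members against the direction of their role, and for probes of a gene that differed in sign or call. Other lists were given by counts and up to 4 examples. Sgsh and Hgsnat of those lists were not tested, and Ctsb, Asah1, Psap, Ppt1, Hexa, and Atp6v1b2 had no promoter window. The alternatives covered background correction, normalization, filtering, probe choice, slide, scan date, replicate number, array weights, single time points, and leaving out each rat. Calls of single genes were followed under them for the members only, not for the other lists or the markers.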

Additional observations from a re-analysis of the deposited data

Results flagged for a closer look

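In 18 of the 204 sets of 6 rats (34 members in 6 groups), 1 rat stood apart from the others by Dixon's criterion, which chance alone meets in about 1 in 20 sets. At D1, DQ-12 rat 2 stood apart in Ctsc (log2 signal 12.70, nearest rat 13.05), Ctsl (14.04, nearest 13.75), Tpp1 (11.03, nearest 10.72), Ppt1 (12.55, nearest 13.63), Atp6v1a (10.60, nearest 11.46), and Atp6v0c (12.75, nearest 12.51), and DQ-12 rat 1 in Psap (12.37, nearest 12.58). Without DQ-12 rat 2, 9 members were called at D1, and the median log2 FC of the members was 0.00. These were not the same 9, since the calls of Ctsb and Atp6v1a were lost (limma adjusted p = 0.0812 and 0.0565).

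At D30, DQ-12 rat 5 stood apart in Ctsd (16.92, nearest 16.44), Psap (13.14, nearest 11.87), Lamp1 (13.17, nearest 12.56), Atp6v0d1 (11.45, nearest 10.79), and Atp6ap1 (13.32, nearest 13.76). This was the DQ-12 array of D30 that was scanned together with 4 vehicle arrays. Without it, 7 members were called at D30. DQ-12 rat 2 stood apart in Lipa (11.71, nearest 11.87), and vehicle rat 4 in Npc1 (12.36, nearest 13.13) and Mcoln1 (10.64, nearest 10.39). At D180, vehicle rat 2 stood apart in Ctsc (12.97, nearest 13.26) and Npc2 (13.62, nearest 13.34), and vehicle rat 6 in Atp6v1b2 (10.74, nearest 11.17).

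A difference in FC between time points passed the test of the interaction in 11 cases. From D1 to D30 the log2 FC gained 0.82 in Ctsd, 0.62 in Ctss, and 0.53 in Laptm5. From D1 to D180 it gained 1.31 in Atp6v1a, 1.11 in Ctsd, 0.99 in Ctss, 0.65 in Gusb, 0.64 in Laptm5, 0.66 in Lipa, 1.11 in Npc1, and 0.67 in Tfeb.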

How the results depend on the processing

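No called member reversed its direction under any alternative, and among alternatives other than leaving out a rat the call was lost in 30 of 117 cases at D1, 9 of 78 at D30, and 32 of 260 at D180. The number of called members (9 at D1, 6 at D30, and 20 at D180) became 3, 10, and 4 with slide as a fixed block, 1 at D1 with scan date as a fixed block, 3 at D1 with scan date as a random block, and 14 at D30 with array weights. Over all genes, the calls at D30 rose from 659 higher and 299 lower to 1662 and 1814 with array weights. With slide as a fixed block they fell at every time point, and with scan date as a fixed or random block they fell at D1. For the members, leaving out each rat in turn gave 8 to 10, 4 to 7, and 16 to 22. The median log2 FC of the members was 0.18 at D1 and 0.28 at D180 with slide as a fixed block, and 0.20 at D1 with scan date as a fixed block. The 3 members that differed between D1 and D30 became 1 with 75th percentile scaling, with the deposited log2 values, and with scan date as a random block, 5 with the filter on probes well above background, 0 with slide or scan date as a fixed block, 9 with array weights, and 0 to 4 without single rats. The 0 members between D30 and D180 became 1 with that filter, 6 with array weights, and 0 to 2 without single rats, and the 8 between D1 and D180 became 0 with slide or scan date as a fixed block and 6 to 8 without single rats. The cause of these changes was not tested, and slides shared by both groups held 1 vehicle rat at D1 and 1 rat of each group at D180. The replicate numbers of the labels did not pair the rats (correlation of deviations between −0.13 and 0.22), and the replicate block gave 9, 7, and 20 called members and 3, 0, and 8 differences between time points. Between 61.0 and 80.6% of probes per array were well above background, which limits calls of dim probes.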
